A study of Mus musculus with 9 samples.

Results

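The genes described here are 10 regulators and products of cartilage and skeletal condensation in the mouse limb bud: Sox9, Sox5, Sox6, Runx2, Col2a1, Gdf5, Prrx1, Prrx2, Twist1 and Shox2. They were chosen by name. The mark followed was acetylation of histone H3 at lysine 27 (H3K27ac), which is found at promoters and enhancers in use. Every H3K27ac peak that touched the gene span plus or minus 50 kb was assigned to its gene, with gene positions from GENCODE release M21 on the mm10 build. For Sox9 the upstream interval to 1382 kb from the start was added, which gave a window of 1438 kb that holds no other protein-coding gene. The 10 genes are part of 21938 protein-coding genes, and their windows held 93 of the 25096 peaks listed for WT, 142 of the 32085 listed for Shh-/- and 216 of the 34641 listed for Shh-/-;Gli3-/-.

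Limb bones begin as mesenchymal cells that crowd into condensations and then differentiate into cartilage. SOX9 is the transcription factor that commits these cells to the chondrocyte fate, and SOX5 and SOX6 act with it to switch on cartilage matrix genes such as Col2a1, which encodes type II collagen. Before condensation the mesenchyme expresses the homeodomain factors PRRX1, PRRX2 and SHOX2 and the basic helix-loop-helix factor TWIST1, while RUNX2 is needed for bone formation and the ligand GDF5 marks future joints. Sox9 is known for lying beside a very large gene-free interval that carries distant enhancers.

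The libraries came from MicroChIP-seq, in which chromatin is immunoprecipitated from little tissue and sequenced, of forelimb buds at E10.5 (33 to 34 somites). The 9 libraries comprise 2 H3K27ac replicates and 1 input for each of 3 genotypes: WT, Shh-/-, which lack the Sonic hedgehog ligand of the posterior limb bud, and Shh-/-;Gli3-/-, which lack in addition GLI3, the main repressor of the Hedgehog pathway. Each reaction used 1 pair of limb buds. The labels give the strain background as mixed, and per the study's methods the null alleles Shhtm1amc and Gli3Xt-J were kept on Swiss Webster. A single peak list per genotype was used, without values per replicate, so the variation between embryos could not be read from them and no test was run.

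The lists differed in extent, which bears on every comparison. They covered 10.4 Mb in WT, 12.9 Mb in Shh-/- and 17.1 Mb in Shh-/-;Gli3-/-, and the share of peaks with a false discovery rate (FDR) below 0.05 was 60.8%, 72.4% and 83.4% in that order. Of 4 limb mesenchyme markers (Prrx1, Msx1, Lhx9, Meox2), 4 had a promoter peak in WT, 3 in Shh-/- and 4 in Shh-/-;Gli3-/-. The marker without one in Shh-/- was Meox2, whose WT peak measured 100 bp, and the peaks of Prrx1, Msx1 and Lhx9 were wider in Shh-/- than in WT. The forelimb gene Tbx5 had a promoter peak in every list, and the hindlimb genes Tbx4 and Pitx1 and all 4 ectoderm markers had none. None of the muscle precursor and endothelial markers had a promoter peak in WT and Shh-/-, whereas the Shh-/-;Gli3-/- list held 2 of 3 (Lbx1 and Met) and 1 of 4 (Pecam1), in peaks of 100 to 250 bp. The part of these extra peaks and of the larger list in the results was not tested. In whole limb buds, more acetylation per cell and a larger share of acetylated cells cannot be told apart.

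The length covered by peaks was longer in both mutants than in WT at all 10 genes. Summed over the 10 windows the WT list covered 43.5 kb, the Shh-/- list 68.2 kb and the Shh-/-;Gli3-/- list 113.5 kb, which is 1.57 and 2.61 times the WT length, against 1.25 and 1.66 times for the whole lists. Without Sox9 the sums were 40.7, 65.1 and 88.9 kb, or 1.60 and 2.18 times. Peaks away from promoters (distal, as defined below) covered 18.75, 35.4 and 74 kb in the 10 windows. In the whole lists they covered 2896550, 4274100 and 7438750 bp. They made up more of the WT length in the windows than in the whole WT list, and their part in the ratios was not tested. When each list was reduced to its highest scoring peaks up to the covered length of WT, the summed ratios were 1.29 and 1.45, and 3 of the gene-level directions turned, for Sox9 in Shh-/- and for Col2a1 and Prrx2 in Shh-/-;Gli3-/-. The order WT, Shh-/-, Shh-/-;Gli3-/- held at 8 of the 10 genes, the exceptions being Col2a1 and Prrx2, where the mutant lists differed by 100 and 200 bp. The whole lists rose in the same order. How many of all genes did so, or were longer in both mutants, was not counted. The median protein-coding gene was itself longer than WT within 50 kb, at 1.2 times in Shh-/- and 1.31 times in Shh-/-;Gli3-/-. A length above WT was thus not particular to the 10 genes. At equal covered length this order was lost at more genes, since the double mutant was then below Shh-/- at 5 of the 10.

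**Figure D1:**
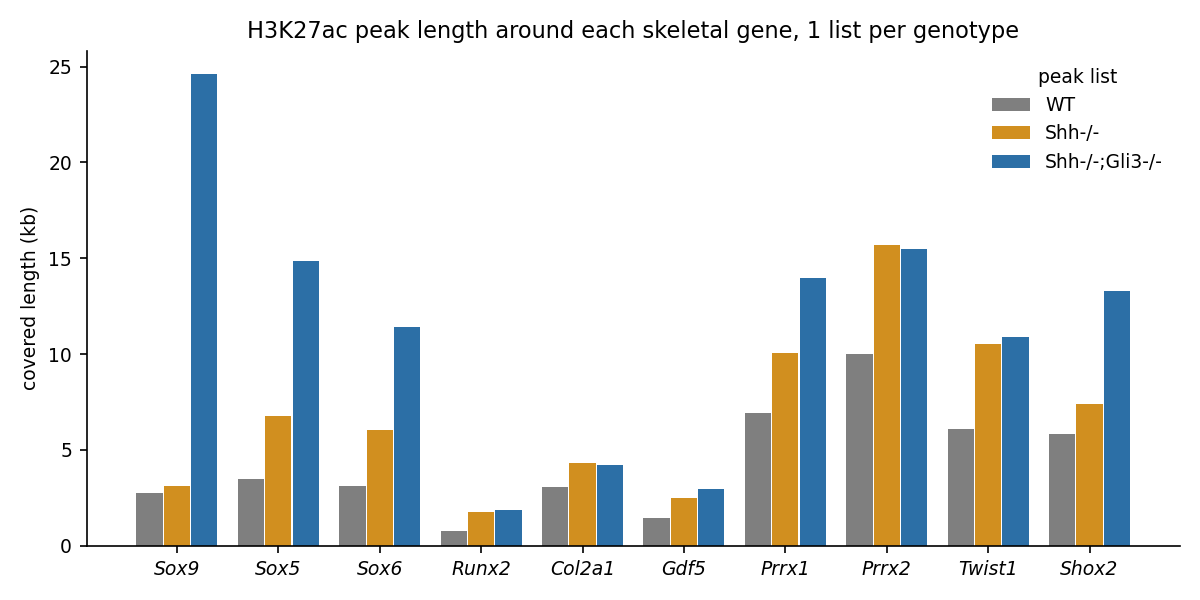
Length covered by H3K27ac peaks (kb, vertical axis) in the window of each of the 10 genes, with 1 bar per peak list and no error bars because each genotype has 1 list. The Sox9 bar of Shh-/-;Gli3-/- reaches 24.6 kb, against 2.75 kb in WT and 3.1 kb in Shh-/-, and Runx2 and Gdf5 are the least covered genes in every list.

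The same measure was taken within 50 kb of 14064 protein-coding genes with a mean of at least 500 bp covered. The median gene had 1.2 times the WT length in Shh-/- and 1.31 times in Shh-/-;Gli3-/-, and the median of the 10 genes was 1.65 and 2.03 times. Taken 2-fold or more as called, 1 of the 10 genes (Runx2) was above WT in Shh-/-, where 10.4% of all genes were, and 6 of 10 were above WT in Shh-/-;Gli3-/-, where 15.0% of all genes were. None of the 10 was 2-fold below WT in either mutant, where 1.47% of genes were called in Shh-/- and 0.356% in Shh-/-;Gli3-/-. Between the mutants, 1 of 10 (Sox5) was 2-fold higher in Shh-/-;Gli3-/- (7.39% of all genes) and none was 2-fold lower (1.86%). These calls depend on the size of the lists. With equal numbers of peaks none of the 10 genes was 2-fold above WT in Shh-/- (8.38% of all genes) and 4 were in Shh-/-;Gli3-/- (11.9%). With equal covered length none was in either mutant within 50 kb, where 5.01% and 3.28% of all genes were. At equal covered length the median over all genes was 1.02 times WT in Shh-/- and 0.943 times in Shh-/-;Gli3-/-, and 9 and 8 of the 10 genes lay above these medians. The values over all genes were not matched on window length. The windows of Sox5, Sox6 and Runx2 spanned 1054, 668 and 419 kb.

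**Figure D2:**
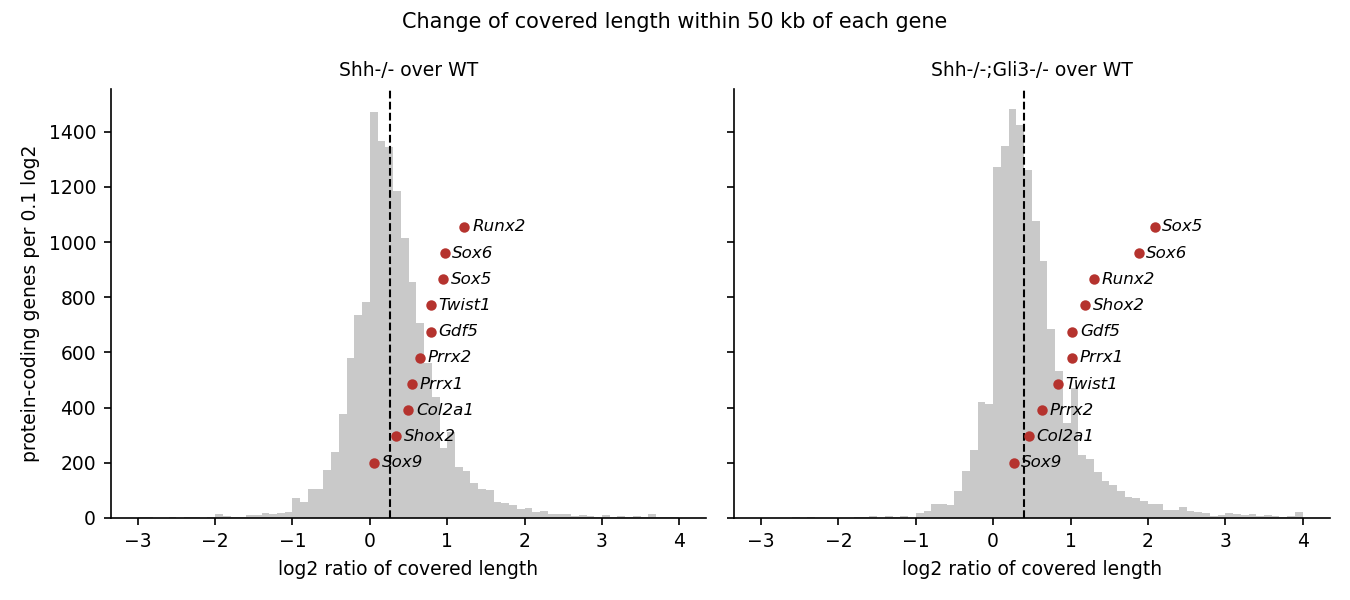
Histograms of the log2 ratio of covered length within 50 kb (horizontal axis) over protein-coding genes (vertical axis, genes per bin), Shh-/- over WT on the left and Shh-/-;Gli3-/- over WT on the right, with dashed lines at the medians and ratios beyond the axis drawn at its ends. The red points give the 10 genes, and their height only separates the names. 9 of the 10 lie to the right of the median in each panel, and Sox9, whose distant upstream peaks are outside the 50 kb, lies to the left.

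Sox9 (chr11:112782224-112787760, + strand) had a promoter peak in every list. It measured 1250 bp in WT, 1150 bp in Shh-/- and 850 bp in Shh-/-;Gli3-/-, where another 2 peaks of 250 and 150 bp lay just upstream. The promoter was thus similarly covered in the 3 lists, with 1250, 1150 and 1250 bp in all. What differed was the interval before the gene. The window held 5 distal peaks in WT, 12 in Shh-/- and 64 in Shh-/-;Gli3-/-, covering 1.5, 1.95 and 23.35 kb, of which 5, 11 and 62 lay upstream of the start. Distal means clear of the zone from 2 kb before to 1 kb past any protein-coding start, and the whole lists held 11669, 16489 and 21087 distal peaks. Of the 64 double-mutant peaks, 59 had no WT peak and 57 no Shh-/- peak, while all 5 WT peaks were overlapped in Shh-/-;Gli3-/-. Another 2 of the 64 lay within the Sox9 gene itself.

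With an FDR below 0.05, 3 of the Sox9 distal peaks remained in WT, 5 in Shh-/- and 48 in Shh-/-;Gli3-/-. Over all distal peaks 44.7%, 62.0% and 78.7% passed, so the double-mutant peaks at Sox9 passed about as often as the list at large. Of the 64, 12 measured 500 bp or more, a width that none of the WT or Shh-/- distal peaks of this window reached. With lists of equal covered length the counts were 5, 1 and 8, and the covered lengths 1500, 400 and 7350 bp. Genome tiles of the same 1438 kb gave a background chosen after the values were seen. Of 1537 tiles, 31.0% were covered 2-fold or more in Shh-/-;Gli3-/- over WT, and 3.58% reached the 8.95-fold ratio of the Sox9 window. The median tile ratio was 1.59.

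**Figure D3:**
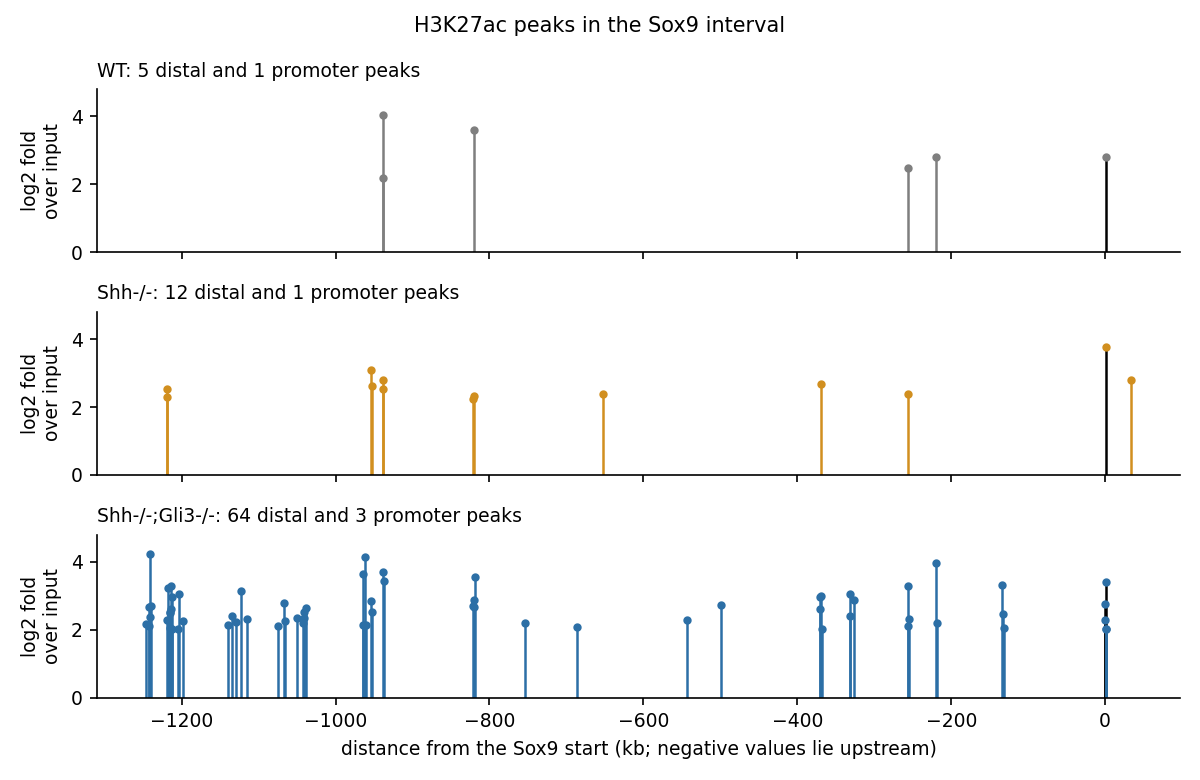
Each H3K27ac peak of the Sox9 window by its distance from the Sox9 start (kb, horizontal axis) and its log2 fold over the input of the same genotype (vertical axis), with 1 panel per list and promoter peaks drawn in black. The 64 distal peaks of Shh-/-;Gli3-/- gather in groups, of which 31 peaks lie 1000 to 1300 kb upstream, where WT has none, and no list holds a distal peak in the 100 kb before the gene. Folds of different panels are relative to different inputs.

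The peaks stood in groups along the interval. Within 100 kb upstream of the start no list held a distal peak. From 100 to 400 kb WT and Shh-/- held 2 peaks each and Shh-/-;Gli3-/- held 15, and from 400 to 800 kb the lists held 0, 1 and 4. From 800 to 1000 kb the lists held 3, 6 and 12 peaks covering 0.9, 1.05 and 8.25 kb, so this stretch was acetylated in all genotypes but most widely in the double mutant. From 1000 to 1300 kb, WT held none, Shh-/- 2 peaks of 250 bp together and Shh-/-;Gli3-/- 31 peaks covering 8.85 kb. The WT peak of highest fold in the interval, at chr11:111843400-111843799 (log2 fold 4.05, FDR 0.00115), was overlapped by a 200 bp peak in Shh-/- and a 1700 bp peak in Shh-/-;Gli3-/-.

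The 2 Shh-/-;Gli3-/- peaks of the highest fold in this interval without a peak in the other lists are shown by their central 300 bases, because they stand for the peaks that the other genotypes lacked. The first, chr11:111541100-111541499, is 400 bp wide, lies 1241 kb upstream and has a log2 fold of 4.24 (FDR 0.000233). The second, chr11:111818450-111821799, is 3350 bp wide, lies 962.1 kb upstream and has a log2 fold of 4.13 (FDR 0.000233). Both are intergenic and are given on the + strand of GRCm38 from the RefSeq assembly, at chr11:111541150-111541449 and chr11:111819975-111820274, and capitals mark the homeodomain core TAATTA.
Sox9 distal 1: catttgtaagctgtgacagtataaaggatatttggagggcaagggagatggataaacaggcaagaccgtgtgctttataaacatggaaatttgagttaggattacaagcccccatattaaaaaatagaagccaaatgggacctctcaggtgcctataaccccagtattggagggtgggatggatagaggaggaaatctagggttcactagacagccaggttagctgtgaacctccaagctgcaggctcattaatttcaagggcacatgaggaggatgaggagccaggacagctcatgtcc
Sox9 distal 2: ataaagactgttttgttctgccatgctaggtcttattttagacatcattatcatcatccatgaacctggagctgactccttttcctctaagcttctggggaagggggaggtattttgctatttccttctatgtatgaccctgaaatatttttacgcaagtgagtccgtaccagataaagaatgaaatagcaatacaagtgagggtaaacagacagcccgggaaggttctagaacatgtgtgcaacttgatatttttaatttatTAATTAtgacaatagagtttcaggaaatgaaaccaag

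Sox5 (chr6:143828425-144781977, - strand) was covered over 3.5, 6.75 and 14.85 kb, or 1.93 and 4.24 times the WT length, and its distal peaks numbered 11, 19 and 32. All but 1 of the 32 lay in introns or across the 5' end of the gene. The annotated 5' end itself was acetylated over 900 bp in WT, in a single 100 bp peak in Shh-/- and over 1700 bp in Shh-/-;Gli3-/-. This start belongs to no protein-coding transcript of the annotation, so these peaks counted as distal. At the internal coding start near chr6:144208600-144211499 the widest peak was 300, 750 and 950 bp. A pair of intronic regions was shared by all lists and widest in the double mutant: the region around the double-mutant peak chr6:144263950-144265699 was covered over 550, 950 and 1750 bp, and that around chr6:144453400-144455249 over 900, 450 and 1850 bp. Between 20 and 50 kb downstream of the 5' end, Shh-/-;Gli3-/- alone held peaks, 7 in number and covering 1.65 kb.

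Sox6 (chr7:115470872-116038796, - strand), the partner of SOX5 in chondrocytes, was similar in pattern. It was covered over 3.1, 6.05 and 11.4 kb, which is 1.95 and 3.68 times WT, and held 9, 14 and 28 distal peaks. Its main promoter peak, 6 to 7 kb inside the gene, measured 950, 1350 and 1800 bp. An intronic group around the double-mutant peak chr7:115645950-115646799 was present in all lists with 700, 750 and 1400 bp, whereas the group 340 to 350 kb into it held no WT peak, a 100 bp peak in Shh-/- and 4 peaks covering 1.55 kb in Shh-/-;Gli3-/-. With the added Sox9 interval, Sox9, Sox5 and Sox6 together held the 3 highest ratios of the double mutant to WT among the 10 genes, and also the 3 highest of the double mutant to Shh-/- (7.94, 2.2 and 1.88 times), the last of which turned to 0.811 times for Sox6 with lists of equal covered length. Within 50 kb, the window of the other genes, Sox9 stood at 1.2 times WT and 1.15 times Shh-/-, and its ratio to WT was the lowest of the 10.

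Col2a1 (chr15:97975602-98004695, - strand) encodes the collagen that SOX9 activates. Its window was covered over 3.05, 4.3 and 4.2 kb in WT, Shh-/- and Shh-/-;Gli3-/-, and at equal covered length the double-mutant ratio of 1.38 turned to 0.820. No WT peak lay on its promoter, where Shh-/- had a peak of 450 bp (log2 fold 3.42) and Shh-/-;Gli3-/- a peak of 200 bp (log2 fold 2.31). Its strongest acetylation was inside the gene in every list. Between 10 and 16 kb downstream of the start, over exons and introns, the lists covered 2.1, 2.65 and 3.1 kb, and peaks merged in the double mutant into a 2500 bp peak at chr15:97988950-97991449.

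Gdf5 (chr2:155941023-155945367, - strand), the joint ligand, and Runx2 (chr17:44495987-44814797, - strand), the bone regulator, were sparsely acetylated. Of the 3 WT peaks in the Gdf5 window, 2 lay on the promoters of the neighbours Uqcc1 and Cep250. Peaks on promoters of other genes made up 1300, 1500 and 2200 bp of the 1450, 2500 and 2950 bp covered in this window. A promoter peak of Gdf5 was listed in Shh-/- only, at 200 bp. Upstream of the gene, a peak of 600 bp in Shh-/- at chr2:155949650-155950249 overlapped a 400 bp peak of Shh-/-;Gli3-/-, and WT had none. Both WT peaks of the Runx2 window lay on the promoter of Supt3, a gene overlapping it, and were present in every list. Runx2's own internal promoter, 79.5 kb inside the gene, had peaks of 350 and 100 bp in Shh-/- and none in WT or Shh-/-;Gli3-/-. The rest of the Runx2 window held 0 distal peaks in WT, 3 in Shh-/- and 4 in Shh-/-;Gli3-/-, of 100 to 200 bp each. Of these 7, 1 double-mutant peak had an FDR below 0.05. The 2-fold ratio of Runx2 thus rests on short peaks and on the peaks at Supt3, which covered 750, 850 and 1300 bp.

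The mesenchymal regulators were acetylated in broad domains in every list. Prrx1 (chr1:163245119-163313710, - strand), which marks limb mesenchyme before it condenses, was covered over 6.9, 10.05 and 13.95 kb. Its widest promoter peak measured 3500, 4550 and 7200 bp, and the double-mutant peak joined what were 4 WT peaks and 4 Shh-/- peaks. The promoter was among the most enriched sites of these genes, with log2 folds of 4.81, 5.80 and 6.14 over the respective inputs. A second domain stood 40 to 50 kb upstream. There WT had a single 100 bp peak (log2 fold 2.26, FDR 0.211), Shh-/- 7 peaks covering 1.85 kb and Shh-/-;Gli3-/- 6 peaks covering 4.85 kb, the widest of them 2800 bp. This upstream domain was thus barely detected in WT and listed in both mutants.

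Twist1 (chr12:33957671-33959829, + strand) was covered over 6.1, 10.55 and 10.9 kb. Its widest promoter peak was 2000, 2500 and 4400 bp. A downstream domain 2 to 12 kb from the start was acetylated in every list, with 8 WT peaks covering 2.35 kb, 6 Shh-/- peaks covering 6.3 kb and 9 Shh-/-;Gli3-/- peaks covering 6.05 kb. The number of peaks was therefore alike, while all distal peaks of the window covered 2.63 and 2.47 times the WT length in the mutants. Distal peaks of the whole lists covered 2896550, 4274100 and 7438750 bp, so a longer distal length was not particular to Twist1. At equal covered length the distal peaks of Twist1 covered 2450, 6450 and 2350 bp, so the double mutant was then slightly below WT. At the start itself the lists differed in continuity. WT peaks ended at 33957299 and began again at 33957650, Shh-/- peaks ended at 33957399 and began again at 33957750, and a single Shh-/-;Gli3-/- peak ran across.

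Shox2 (chr3:66971727-66981771, - strand), needed for growth of the proximal limb skeleton, was covered over 5.85, 7.4 and 13.3 kb. Its widest promoter peak was 2700, 3900 and 6550 bp, or 1.44 and 2.43 times WT. Distal peaks numbered 2, 6 and 14. The window also takes in the promoter of Rsrc1, a gene overlapping Shox2, with 1 to 2 peaks in each list. A domain 35 to 50 kb downstream was in all lists, with 0.7, 1.15 and 3.4 kb. Closer to the gene, between 8 and 18 kb downstream of the start, only the double mutant had peaks, 5 of 100 to 400 bp.

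**Figure D4:**
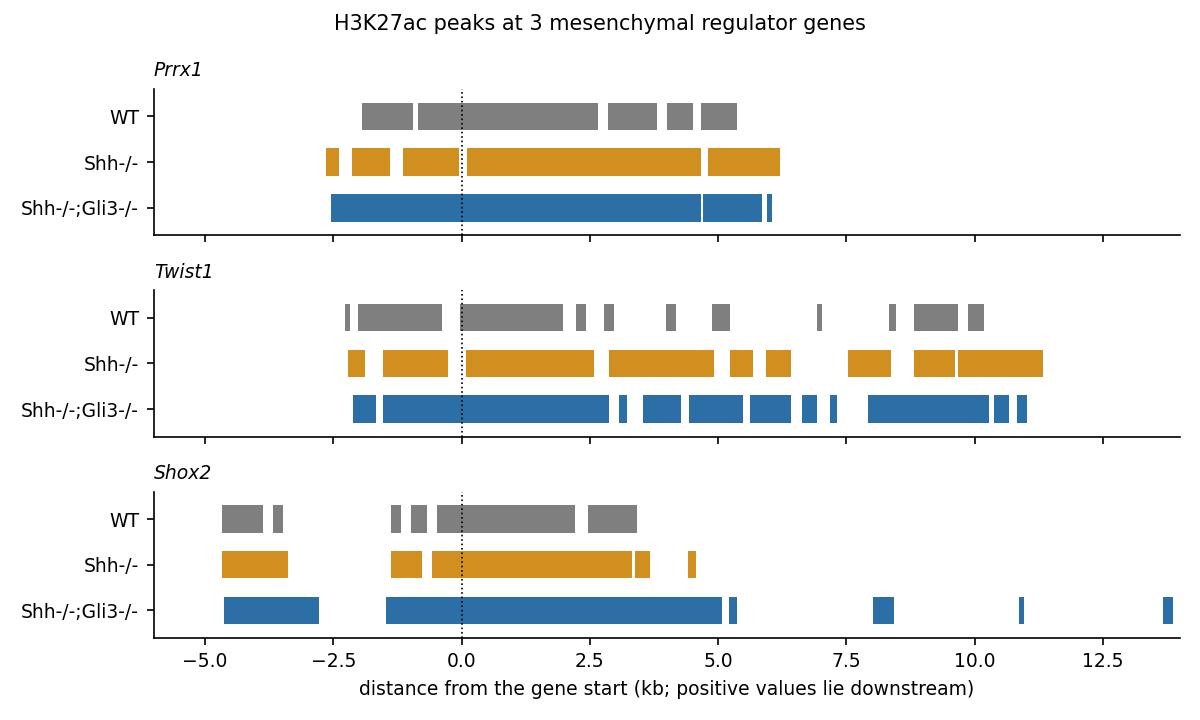
H3K27ac peaks (bars) at Prrx1, Twist1 and Shox2 by distance from the gene start (kb, horizontal axis, positive downstream), with 1 row per list. Peaks that are separate in WT are joined in Shh-/-;Gli3-/-, where the widest promoter peaks measure 7200, 4400 and 6550 bp, against 3500, 2000 and 2700 bp in WT.

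These 3 promoters are shown because they carried the widest peaks at the 10 genes, which in Shh-/-;Gli3-/- were 2.06 (Prrx1), 2.2 (Twist1) and 2.43 times (Shox2) as wide as in WT. Each sequence is the RefSeq promoter of GRCm38 from 250 bases upstream to 50 downstream of a start, 5' to 3' on the strand of the gene. For Twist1 (chr12:33957421-33957720, + strand) capitals mark the 229 bases that lay in neither a WT nor a Shh-/- peak and all of which lay inside the double-mutant peak. For Prrx1 (chr1:163313601-163313900, - strand) and Shox2 (chr3:66981722-66982021, - strand) capitals mark TAATTA, which occurs in Prrx1 and not in Shox2. The Twist1 window held 27 CpG dinucleotides, Prrx1 6 and Shox2 11, and the median over 32851 RefSeq promoters was 7. The Prrx1 upstream domain is given by the central 300 bases of its 2800 bp double-mutant peak (chr1:163356450-163356749, + strand, intergenic), which had a log2 fold of 3.68.
Twist1 promoter: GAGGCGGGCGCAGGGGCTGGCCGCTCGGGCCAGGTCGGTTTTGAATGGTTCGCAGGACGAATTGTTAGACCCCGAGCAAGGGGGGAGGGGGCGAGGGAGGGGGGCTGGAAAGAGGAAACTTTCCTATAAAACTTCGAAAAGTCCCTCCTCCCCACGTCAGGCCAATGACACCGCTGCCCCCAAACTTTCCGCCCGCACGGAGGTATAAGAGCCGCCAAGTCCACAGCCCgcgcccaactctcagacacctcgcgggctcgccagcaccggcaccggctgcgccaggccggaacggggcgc
Prrx1 promoter: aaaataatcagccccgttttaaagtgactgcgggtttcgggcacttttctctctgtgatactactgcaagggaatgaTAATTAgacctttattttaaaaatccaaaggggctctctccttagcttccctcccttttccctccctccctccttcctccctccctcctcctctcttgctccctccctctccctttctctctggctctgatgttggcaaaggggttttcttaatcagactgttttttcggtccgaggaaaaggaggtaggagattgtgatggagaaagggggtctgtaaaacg
Shox2 promoter: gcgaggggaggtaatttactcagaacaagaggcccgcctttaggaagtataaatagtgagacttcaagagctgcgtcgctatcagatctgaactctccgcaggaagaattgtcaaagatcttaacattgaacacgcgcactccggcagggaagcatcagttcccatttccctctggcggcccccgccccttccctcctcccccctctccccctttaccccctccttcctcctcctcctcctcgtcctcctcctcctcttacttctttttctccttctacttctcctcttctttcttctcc
Prrx1 upstream: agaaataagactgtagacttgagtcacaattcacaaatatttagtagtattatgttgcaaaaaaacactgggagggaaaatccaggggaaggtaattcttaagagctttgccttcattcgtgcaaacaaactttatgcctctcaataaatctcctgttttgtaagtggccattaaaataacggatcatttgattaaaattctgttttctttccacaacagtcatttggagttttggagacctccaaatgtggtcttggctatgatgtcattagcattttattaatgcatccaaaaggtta

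Prrx2 (chr2:30834972-30881251, + strand), a close relative of Prrx1, was the most covered gene in WT, and the gene at which Shh-/- stood highest. It was covered over 10000, 15700 and 15500 bp, and the ratio of the double mutant to WT, 1.55, turned to 0.965 at equal covered length. Distal peaks numbered 13, 25 and 18. In the gene body, 11 to 42 kb from the start, the lists held 9, 19 and 14 distal peaks covering 2.45, 7.25 and 4.85 kb. Within chr2:30873900-30876049, Shh-/- peaks of 1400, 250 and 200 bp overlapped 4 WT peaks of 100 bp each there, and no Shh-/-;Gli3-/- peak did. Peaks on the promoters of Ntmt1 and Asb6 also count in this window. Its widest promoter peak was 1700 bp in WT and 3000 bp in Shh-/-;Gli3-/- at the first start, and 1650 bp in Shh-/- at the internal start, where WT had 900 bp.

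Promoter peaks of the gene itself were present in WT at 7 of the 10 genes, in Shh-/- at 10 and in Shh-/-;Gli3-/- at 8. Over all protein-coding genes the shares were 44.3%, 48.3% and 46.3%. Sox9, Sox5, Sox6, Prrx1, Prrx2, Twist1 and Shox2 had a promoter peak in every list, and Runx2, Col2a1 and Gdf5, which act later in skeletal differentiation, had none in WT. At the 7 genes, the widest promoter peak was wider than WT at 5 in Shh-/- and at 6 in Shh-/-;Gli3-/-. Sox9 was the exception in both, and Prrx2 in Shh-/-, where its widest peak stood at another start than in WT. The share of all promoters with a wider peak was not counted. Over all peaks, distal ones included, the median width was 250 bp in WT and Shh-/- and 300 bp in Shh-/-;Gli3-/-, which is not a background for promoter peaks.

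Next, the distal peaks of the 10 genes were compared between lists. They numbered 62 in WT, 104 in Shh-/- and 187 in Shh-/-;Gli3-/-. With lists of equal covered length, which keep 9365 Shh-/-;Gli3-/- peaks, they numbered 62, 44 and 23. The distal peaks of the whole lists turned likewise, to 11669, 6011 and 2701. Of the 62 WT peaks, 64.5% (40, Wilson 95% interval 52.1 to 75.3%) overlapped a Shh-/- peak and 67.7% (42, 55.4 to 78.0%) overlapped a Shh-/-;Gli3-/- peak. That left 22 without a Shh-/- peak, where 61.0% of all distal WT peaks had none, and 20 without a Shh-/-;Gli3-/- peak, where 47.6% had none. At equal covered length the overlapped shares were 46.8% and 45.2%, and the share over all distal WT peaks was not computed for those lists. As deposited, WT peaks at these genes were overlapped in the mutants more often than distal WT peaks at large. Their median log2 fold was 2.58 and their median width 200 bp, against 2.49 and 150 bp for all distal WT peaks, and the part of these in the shares was not tested.

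In the other direction, 72 of the 104 Shh-/- peaks had no WT peak, against 73.5% of all distal Shh-/- peaks. This share was 69.2% at the 10 genes and so close to the background. Of the 187 Shh-/-;Gli3-/- peaks 160 had no WT peak, which is 85.6% against 77.3% of all distal peaks of that list. Without Sox9 it was 101 of 123, or 82.1%. Intervals of these shares cover counting error over peaks only, and neighbouring peaks of a gene are not independent.

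**Figure D5:**
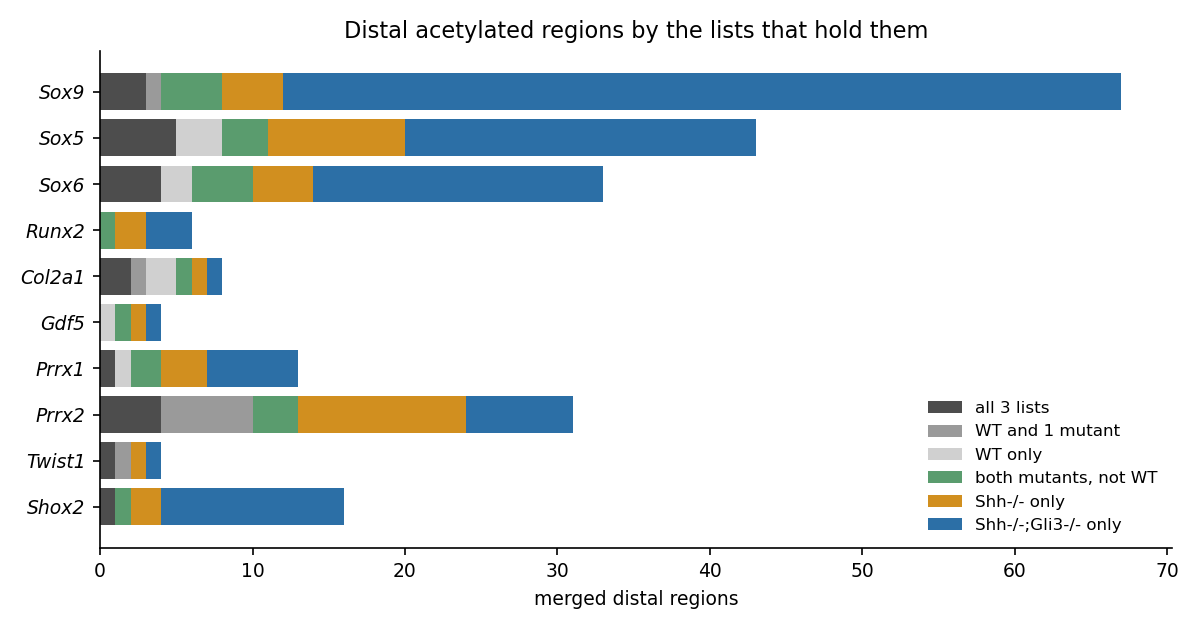
Number of distal regions (horizontal axis) in the window of each gene after overlapping or adjoining peaks of the 3 lists were merged, coloured by the lists that hold them. Of 225 regions 128 are held by Shh-/-;Gli3-/- only, 55 of them at Sox9, and 21 are held by all 3 lists.

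Merged across lists, the distal peaks formed 225 regions. Of these, 21 (9.33%) were in all lists, 20 (8.89%) in both mutants but not WT, 38 (16.9%) in Shh-/- only, 128 (56.9%) in Shh-/-;Gli3-/- only and 9 (4%) in WT only. Over all 33519 distal regions of the series the corresponding shares were 9.82%, 7.39%, 24.6%, 39.0% and 13.8%. Without Sox9 the share in Shh-/-;Gli3-/- only was 46.2%. WT-only regions were found at Sox5 (3), Sox6 (2), Col2a1 (2), Gdf5 (1) and Prrx1 (1), and were absent at the other genes.

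The rest of the skeletal program was followed in 39 further genes, of which 21 had at least 500 bp covered on average. Of these 21, 5 were 2-fold or more above WT in Shh-/-;Gli3-/- and none below, against 15.0% and 0.356% of all genes, and the median ratio was 1.42 against 1.31. In Shh-/- 1 was 2-fold or more above WT and 2 were 2-fold or more below, against 10.4% and 1.47% of all genes. The median was 1.30 against 1.2. The medians over WT were thus near those of all genes. Compared with Shh-/-, 5 of the 21 were 2-fold or more higher in Shh-/-;Gli3-/- and none lower, against 7.39% and 1.86% of all genes. The median of that ratio was 1.15 against 1.10. Of 9 cartilage matrix genes tested, 3 were 2-fold or more above WT in the double mutant, against 15.0% of all genes. The largest ratios were at Col9a1, encoding a chain of cartilage type IX collagen, with 0.3, 0.75 and 2.3 kb in WT, Shh-/- and Shh-/-;Gli3-/-, and at Trps1, a zinc finger gene of skeletal development, with 8.05, 11.6 and 24.5 kb. Lower by 2-fold or more in Shh-/- than in WT were Acan, encoding the proteoglycan aggrecan, with 0.75, 0.15 and 0.8 kb, and Has2, encoding a hyaluronan synthase, with 2.1, 1.0 and 3.15 kb. Of the 7 adhesion and matrix genes of condensations none was 2-fold above WT in either mutant, and their medians were 1.34 and 1.29. Nkx3-2, Barx2, Tnc, Snorc and Pthlh had no peak within 50 kb in any list.

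By covered length within 50 kb in the 3 lists, the genes most like Prrx1 were Erlin2, Sept9 and Vasn, at distances of 0.208, 0.225 and 0.242 on the log2 scale over 3 lists. For Sox9 they were Wasl, Atp5f1 and I830077J02Rik, and 179 genes lay within 0.2 of it, so its proximal pattern of 1250, 1300 and 1500 bp was a common one.

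Finally, a window of 300 bases centred on each distal peak of an assembled chromosome was searched on both strands. The letters were GACCACCCA, bound by GLI proteins, and TAATTA, the core read by many homeodomain proteins. At the 10 genes the median distal peak was 200, 200 and 250 bp wide in the 3 lists, so many windows take in bases outside the peak. The GLI letters were in 0 of the 62 WT, 104 Shh-/- and 187 Shh-/-;Gli3-/- windows at the 10 genes, with Wilson 95% upper limits of 5.83%, 3.56% and 2.01%, and in 0.317%, 0.225% and 0.218% of all distal windows of these lists. TAATTA was in 5 WT windows (8.06%, Wilson 95% interval 3.49 to 17.5%), in 7 Shh-/- windows (6.73%, 3.30 to 13.2%) and in 36 Shh-/-;Gli3-/- windows (19.3%, 14.2 to 25.5%), while all distal windows held it at 5.27%, 5.76% and 9.19%. In the double mutant 13 of the 36 were at Sox9, 9 at Sox6 and 5 at Sox5. The median GC content of the double-mutant windows was 43.0% at the 10 genes and 46.7% over all, and its part in the motif share was not tested. Windows of neighbouring peaks can share bases.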

How the data were processed

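H3K27ac MicroChIP-seq peak lists of E10.5 forelimb buds were used as deposited, 1 per genotype. The labels attach each to the first replicate and do not state pooling. Groups were taken from sample titles, since the labels' own genotype entry gives wild type for all of them. The submitters' processing notes name Bowtie2 2.2.5 and mm10, and the authors called peaks with CisGenome. The authors deposited for each peak its position and width in steps of 50 bp, a score (the largest value of the peak statistic), the largest log2 fold over input, the −log10 of a Poisson p-value at its smallest, and an FDR (a q-value) that reached 0.350 in WT, 0.186 in Shh-/- and 0.109 in Shh-/-;Gli3-/-. Each list refers to its own input, so folds of different lists printed side by side are not on a common scale. The FDR cut and the ranking by score were applied within each list, and the resulting counts were set side by side. Read depth per library is not in the lists, and replicate values and inputs were not analysed here. Whether positions count from 0 or 1 is not stated, and they were read as 1-based.

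Covered length, distal peaks (clear of the zone from 2 kb before to 1 kb past a protein-coding transcript start, GENCODE M21 basic) and overlaps of at least 1 bp were computed with pandas 2.3.3, scipy 1.17.1 and numpy 2.4.6 under Python 3.11.15, and drawn with matplotlib 3.10.9. The functions were tested on simulated data with planted changes. Shares carry Wilson 95% intervals of counting error. No p-values were computed, because each genotype has 1 list. The members and gene lists were chosen with earlier results of these data known. All 10 genes are described, with their widest and highest-fold peaks, further genes are named by their largest 2-fold differences, and the gene groups marked by position in the text were chosen after their values were seen. RefSeq promoters of GRCm38 matched 7 of the 10 genes, the missing entries being Sox9, Col2a1 and Gdf5. The results of 2 marker lists are not reported here.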

Additional observations from a re-analysis of the deposited data

How the results depend on the processing

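No paired analysis was possible because the lists, 1 per genotype, give no values per replicate, which also means that no replicate could be left out. Of 68 values recomputed for the 10 genes together, 55 stayed within 1.5 times (ratios, counts) or within the 95% interval (shares). Lists of equal covered length moved most: the Shh-/-;Gli3-/- over WT log2 ratio was 0.54 against 1.39, distal peaks numbered 44 in Shh-/- and 23 in Shh-/-;Gli3-/-, below the 62 of WT, and the shares of distal WT peaks overlapped were 46.8% in Shh-/- and 45.2% in Shh-/-;Gli3-/-. By construction this alternative keeps 9365 Shh-/-;Gli3-/- peaks and all 25096 of WT. Over the whole lists it leaves 11669, 6011 and 2701 distal peaks in WT, Shh-/- and Shh-/-;Gli3-/-. Below an FDR of 0.05 the distal peaks numbered 32 in WT and 69 in Shh-/-, and 87.5% of the WT peaks were overlapped in Shh-/-;Gli3-/-. With equal numbers of peaks the Shh-/-;Gli3-/- count was 116, and without Sox9, an alternative chosen after seeing the data, it was 123. Requiring 50% of the peak covered gave a Shh-/- share of 51.6%, and allowing 500 bp between peaks gave 79.0% and 83.9%. The shares over all distal WT peaks were not recomputed under any alternative. Windows of 20 and 100 kb, leaving out the added Sox9 interval, a wider promoter zone of 5 kb and, chosen after seeing the data, leaving out peaks on other promoters moved no value past these limits. Leaving out the added Sox9 interval still takes the 62 upstream Sox9 peaks from the 187 distal peaks of Shh-/-;Gli3-/-.

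Of 273 values of single genes, 8 log2 ratios changed sign. At equal covered length these were Sox9 in Shh-/- over WT (-0.83), Col2a1 (-0.29) and Prrx2 (-0.051) in Shh-/-;Gli3-/- over WT, and Sox6 (-0.30), Gdf5 (-0.18) and Twist1 (-0.64) in Shh-/-;Gli3-/- over Shh-/-. With equal numbers of peaks Sox9 in Shh-/- over WT was -0.11, and below an FDR of 0.05 Prrx2 in Shh-/-;Gli3-/- over Shh-/- was 0.074. The 7 genes with a promoter peak in every list were 6 below an FDR of 0.05 and at equal covered length. Peak lists without read counts limit every value to presence, width and the caller's threshold.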
